A study of Homo sapiens with 14 samples.

Results

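The genes examined here are 8 neighbours of MYCN on the short arm of human chromosome 2: LPIN1, TRIB2, FAM84A, NBAS, DDX1, FAM49A, VSNL1 and SMC6, out of 20049 gene symbols in the count table. They were selected on their position along 2p25-p24 and on their levels in these same libraries, so their levels are given as a description, with no test and no p. RNA was sequenced from 14 human neuroblastoma cell lines, with 1 library per line and no treatment. From general knowledge, and not from the labels, 6 of the lines carry MYCN amplification: SK-N-BE(2)C, IMR32, IMR5-75, LS, NGP and SK-N-DZ. The 8 other lines are SH-SY5Y, SK-N-SH, SK-N-AS, SK-N-FI, GI-ME-N, CLB-GA, Lan-6 and NBL-S. All were established cultures in medium with serum, and each library comes from the bulk of a culture, so fewer cells with a transcript and less of it per cell cannot be told apart. IMR5-75 derives from IMR32 and SH-SY5Y from SK-N-SH, also from general knowledge, so these pairs are not independent lines. The DNA of the lines was not analysed here.

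MYCN codes for a transcription factor of the MYC family, and many copies of its locus mark aggressive neuroblastomas. The amplified stretch of DNA is usually longer than the gene, differs between tumours, and can take up pieces that do not lie side by side on the normal chromosome. DDX1 and NBAS, the protein-coding genes next to MYCN on the side of the chromosome end, are known to be amplified with it in a share of tumours.

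On GRCh38, with distances between start sites, the members lie in this order on chromosome 2. LPIN1 (chr2:11677595-11827409, plus strand) starts 4.26 Mb before MYCN and codes for a phosphatidate phosphatase of lipid synthesis. TRIB2 (chr2:12716889-12742734, plus strand) starts 3.22 Mb before it and codes for a pseudokinase that helps target proteins for degradation. FAM84A (chr2:14632686-14650814, plus strand), now called LRATD1, starts 1.31 Mb before it and codes for a protein with an LRAT-like domain. NBAS (chr2:15166909-15561330, minus strand) starts 0.38 Mb before it and codes for a factor of vesicle tethering at the endoplasmic reticulum that also acts in nonsense-mediated RNA decay. DDX1 (chr2:15591178-15631111, plus strand) starts 0.35 Mb before it and codes for a DEAD-box RNA helicase of the tRNA ligase complex. MYCN itself lies at chr2:15940564-15947007 on the plus strand. FAM49A (chr2:16549459-16666331, minus strand), now called CYRIA, starts 0.73 Mb after it and codes for a protein that binds the GTPase RAC1. VSNL1 (chr2:17539126-17657018, plus strand) starts 1.60 Mb after it and codes for visinin-like protein 1, a neuronal calcium sensor. SMC6 (chr2:17663812-17800242, minus strand) starts 1.86 Mb after it and codes for a subunit of the SMC5/6 complex of genome maintenance. All 8 members passed the filter on low counts, which 17781 genes passed.

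The promoter stretches of the 3 members with the highest folds upstream of MYCN are shown because these genes move together in some lines. Each is the 250 bases before the RefSeq start on GRCh38.p14, written 5′ to 3′ on the gene's own strand, with CG dinucleotides in capitals.
DDX1: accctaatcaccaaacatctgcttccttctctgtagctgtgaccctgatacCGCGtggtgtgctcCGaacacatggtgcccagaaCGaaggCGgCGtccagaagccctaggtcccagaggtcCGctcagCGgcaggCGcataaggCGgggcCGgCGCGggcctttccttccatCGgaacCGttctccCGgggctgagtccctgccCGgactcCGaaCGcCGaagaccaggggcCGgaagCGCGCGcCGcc
NBAS: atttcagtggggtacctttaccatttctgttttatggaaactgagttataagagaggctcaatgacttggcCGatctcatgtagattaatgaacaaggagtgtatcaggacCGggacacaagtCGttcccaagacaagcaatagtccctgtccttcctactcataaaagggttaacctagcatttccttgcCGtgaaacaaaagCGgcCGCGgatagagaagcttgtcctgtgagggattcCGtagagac
FAM84A: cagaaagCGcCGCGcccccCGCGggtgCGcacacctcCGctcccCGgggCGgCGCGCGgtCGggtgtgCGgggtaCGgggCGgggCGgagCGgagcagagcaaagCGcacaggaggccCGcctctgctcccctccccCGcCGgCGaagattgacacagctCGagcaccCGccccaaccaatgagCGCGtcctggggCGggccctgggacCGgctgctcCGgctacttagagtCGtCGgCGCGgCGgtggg

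The DDX1 stretch (chr2:15591618-15591867, plus strand) holds 25 CG dinucleotides and 66% G or C. The NBAS stretch (chr2:15561335-15561584, minus strand) holds 8 and 45.6%. The FAM84A stretch (chr2:14632467-14632716, plus strand) holds 35 and 76%. Over all 35116 RefSeq promoters the median was 11 CG dinucleotides, with quartiles of 3 and 23, so NBAS lay below the median and the other two above the upper quartile. The NBAS and DDX1 stretches are 30033 bases apart, with the genes running away from each other. The E-box CACGTG, a motif of MYC family proteins that reads the same on both strands, was found in none of the 10 RefSeq promoters of the 7 members matched. That search covered 300 bases, 250 before to 50 after each start. Of all promoters 7.26% hold it. This says only that these letters are not in these windows.

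Levels are given in CPM, a count divided by the library's total after scaling with TMM factors. A fold sets 1 line against the median of the 13 other lines in log2 CPM, and a gene is called raised at 2-fold or more, with no replicate check. The smallest library, Lan-6, held 35856642 counts and the deepest, LS, 58644013, so that a count of 0 allows up to 0.102 CPM in Lan-6 and 0.0514 CPM in LS, for counting error only. Lan-6 and GI-ME-N stood apart, with gene ratios that fell with transcript length (rho of -0.397 in Lan-6 and -0.40 in GI-ME-N across genes). The ratios rose with GC content in Lan-6 (rho of 0.627) and GI-ME-N (0.257), and fell with it in LS (-0.312), an amplified line. Of all genes tested, 25% were raised in Lan-6 and 21.1% in GI-ME-N, against 9.81% to 17.4% in the other lines. Markers of sympathetic neuroblasts summed to 1430 to 2180 CPM in the 6 amplified lines and to 318 (SK-N-SH) to 6260 CPM (CLB-GA) over all lines. Mesenchymal markers summed to at most 1920 CPM in the 6 lines and to 28500 CPM in GI-ME-N. Leukocyte markers summed to at most 3.82 CPM in the 6 lines and to 470 CPM in SK-N-AS, where PTPRC was at 470 CPM.

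MYCN had its lowest level of the 6 amplified lines in IMR5-75, at 598 CPM, followed by 949 in LS, 1177 in NGP, 1209 in SK-N-DZ, 1442 in IMR32 and 2245 in SK-N-BE(2)C. Among the 8 others NBL-S came highest at 213 CPM, with SK-N-FI at 49.95, CLB-GA at 27.5, SH-SY5Y at 21.5, Lan-6 at 7.29, GI-ME-N at 1.33, SK-N-AS at 0.496 and SK-N-SH at 0.384. The ranges of the 6 lines and the 8 lines did not overlap. The neighbours differed from this pattern, since no member was raised in all 6 lines.

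DDX1 was at 9754 CPM in SK-N-DZ, 7796 in IMR32 and 6558 in IMR5-75, and at 229 in SK-N-BE(2)C, 227 in NGP and 175 in LS. The 8 other lines held 136 CPM (SK-N-AS), 159 (SK-N-FI), 178 (SK-N-SH), 199 (Lan-6, with SH-SY5Y next above it), 245 (NBL-S), 253 (CLB-GA) and 316 (GI-ME-N). The amplified lines thus fell into 3 with very high DDX1 and 3 inside the range of the other lines, and the third-highest line stood 20.7-fold above the fourth. The fold over the other lines was 43.0 in SK-N-DZ (log2 5.43), 34.4 in IMR32 (log2 5.10) and 28.9 in IMR5-75 (log2 4.85). It was 1.01 in SK-N-BE(2)C, 0.991 in NGP and 0.764 in LS, where MYCN was raised 44.9-fold, 23.5-fold and 19.0-fold. Over the 11 lines in which DDX1 was not raised, its highest level was 2.32-fold its lowest and the SD of log2 CPM was 0.34.

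Per kb of its longest transcript, DDX1 stood at 3460 CPM in SK-N-DZ, 2770 in IMR32 and 2330 in IMR5-75. Among 19798 genes with a length, this put it 6th in SK-N-DZ, 9th in IMR32 and 15th in IMR5-75, against 411th in SK-N-BE(2)C, 457th in NGP and 710th in LS. In folds, 91 other genes in SK-N-DZ, 92 in IMR32 and 146 in IMR5-75 exceeded it.

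NBAS was at 3225 CPM in IMR5-75, 2282 in IMR32 and 568 in SK-N-DZ, and at 131 in NGP, 78.0 in SK-N-BE(2)C and 72.5 in LS. Outside the 6, the level was 46.3 CPM for SK-N-FI, 50.4 for SK-N-SH, 52.9 for SH-SY5Y, 62.6 for NBL-S, 63.5 for CLB-GA, 64.2 for SK-N-AS, 75.4 for GI-ME-N and 97.9 for Lan-6. The same 3 lines that were high for DDX1 were high for NBAS, and NGP was the only other amplified line above all 8. With the trend on GC content and length removed, NGP came to 133 CPM, below Lan-6 at 141. The fold was 44.4 in IMR5-75 (log2 5.47), 31.5 in IMR32 (log2 4.98) and 7.83 in SK-N-DZ (log2 2.97). In NGP it was 1.81, just short of the threshold.

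The pair did not keep a fixed proportion. The log2 fold of DDX1 minus that of NBAS was 0.13 in IMR32 and -0.62 in IMR5-75, but 2.46 in SK-N-DZ, where the DDX1 fold was 5.49 times the NBAS fold. Per kb, NBAS ranked 47th in IMR5-75, 103rd in IMR32 and 481st in SK-N-DZ. With no replicates, these differences between lines have no measured error beyond counting.

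FAM84A was at 2557 CPM in IMR5-75 and 2101 in IMR32, at 83.2 in NGP, 46.1 in SK-N-DZ and 19.7 in LS, and at 5.21 in SK-N-BE(2)C. Of the 8 other lines, SK-N-AS had 0.0472 CPM, from 2 counts, SK-N-FI 1.5, SK-N-SH 1.76, Lan-6 6.41, CLB-GA 11, SH-SY5Y 13.2, NBL-S 13.9 and GI-ME-N 55.1. IMR32 and IMR5-75 stood apart, with IMR32 25.3-fold above NGP, the next line. The fold was 193 in IMR5-75 (log2 7.59) and 159 in IMR32 (log2 7.31), and 15 tested genes had a higher fold in each of these lines. It was 6.29 in NGP and 3.49 in SK-N-DZ, but GI-ME-N, a line outside the 6, was also raised, at 4.17-fold, and lay above SK-N-DZ. In SK-N-DZ, FAM84A thus lay within the range of the 8 other lines, while DDX1 and NBAS of the same library lay above it.

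**Figure D1:**
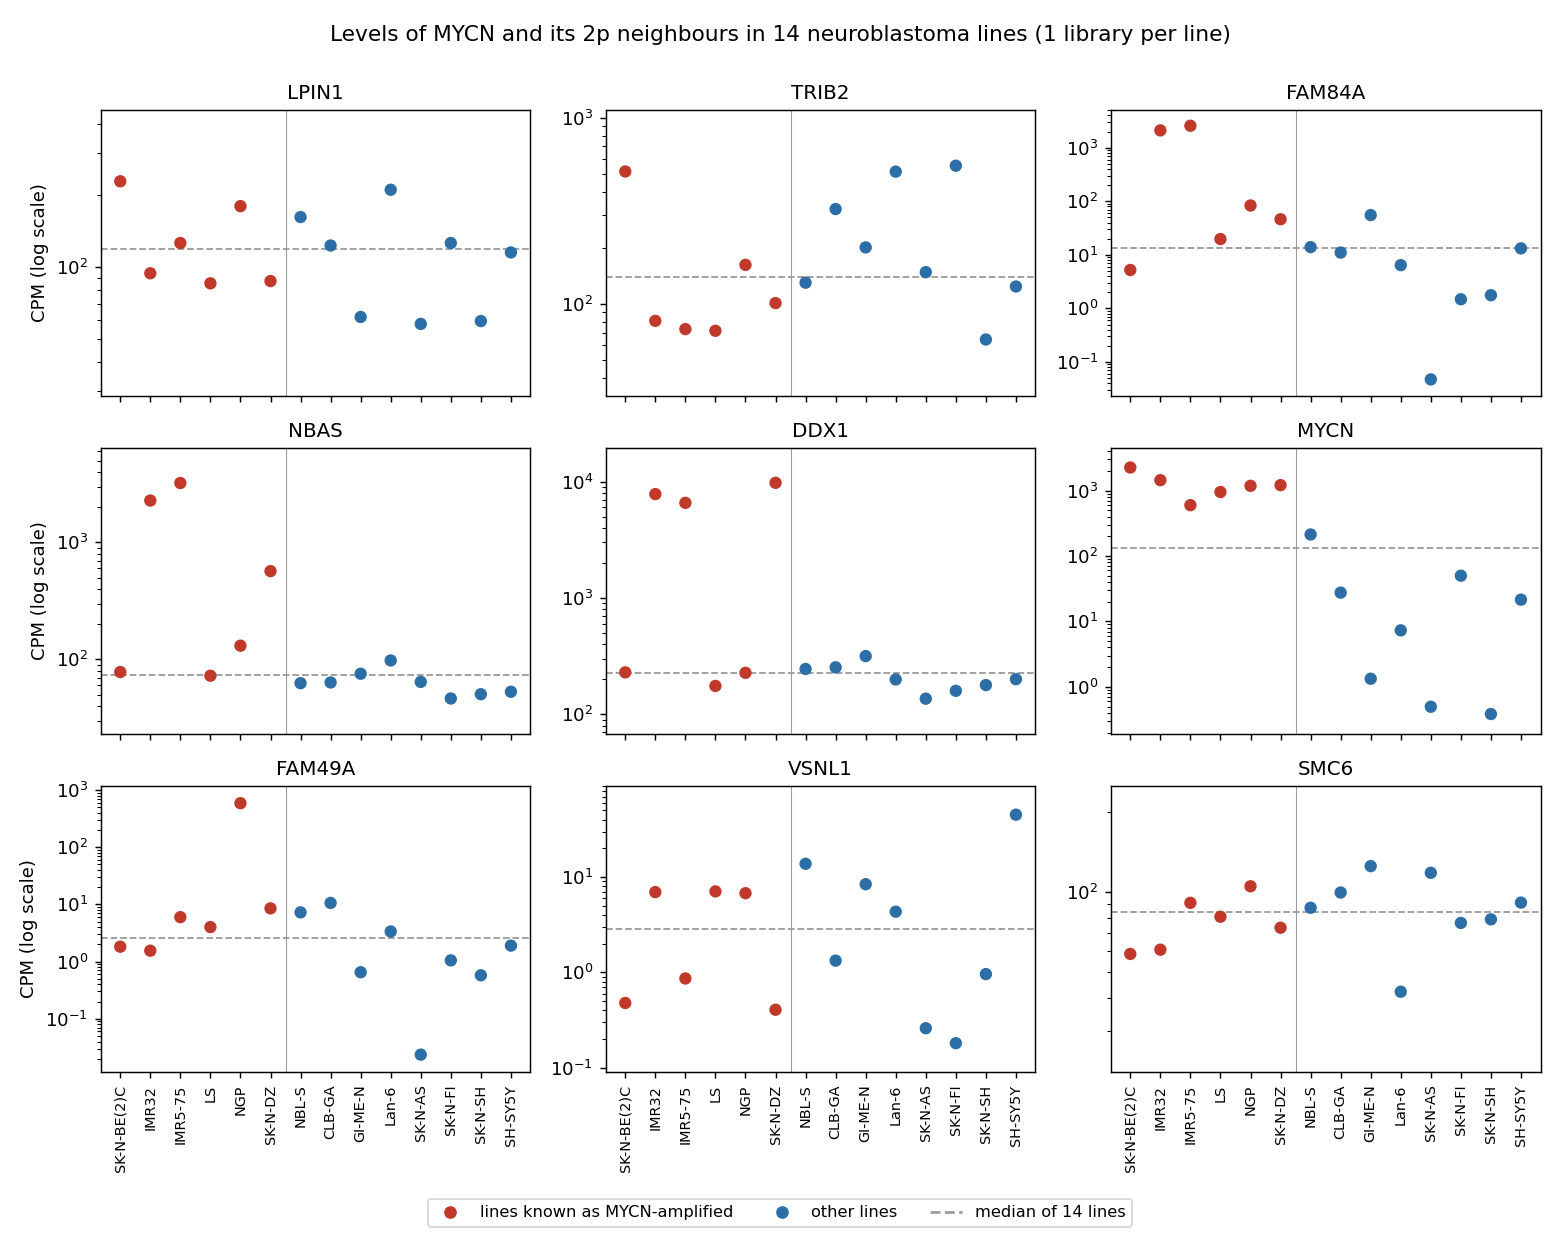
Levels of MYCN and its 8 neighbours, in chromosome order, in each of the 14 lines: each point is 1 library, the vertical axis is CPM on a log scale that differs between panels, red marks the 6 lines known as MYCN-amplified, blue the 8 other lines, and the dashed line the median of all 14. MYCN separates red from blue, DDX1 and NBAS are high in IMR32, IMR5-75 and SK-N-DZ, FAM84A in IMR32 and IMR5-75, and FAM49A in NGP at 587 CPM.

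On the other side of MYCN, FAM49A was at 587 CPM in NGP, 8.51 in SK-N-DZ, 5.98 in IMR5-75, 4.01 in LS, 1.82 in SK-N-BE(2)C and 1.55 in IMR32. Elsewhere it came to 0.0236 CPM for SK-N-AS, from 1 count, 0.576 for SK-N-SH, 0.651 for GI-ME-N, 1.05 for SK-N-FI, 1.90 for SH-SY5Y, 3.36 for Lan-6, 7.25 for NBL-S and 10.6 for CLB-GA. NGP stood alone, 55.2-fold above CLB-GA, the next line, and all 5 other amplified lines lay below CLB-GA. The fold in NGP was 301 (log2 8.23), and 16 tested genes had a higher one there. FAM49A also counted as raised in SK-N-DZ at 4.39-fold, IMR5-75 at 3.09-fold and LS at 2.08-fold, against a median of few counts, and in CLB-GA and NBL-S outside the 6. In NGP the nearer genes DDX1 and NBAS were not raised, although NBAS passed 2-fold (log2 1.06) against the median of the 8 other lines alone, so the line with the highest FAM49A was not among the 3 with high DDX1.

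VSNL1 was at 7.08 CPM in LS, 6.96 in IMR32, 6.78 in NGP, 0.864 in IMR5-75, 0.478 in SK-N-BE(2)C and 0.406 in SK-N-DZ. In the 8 other lines it was highest in SH-SY5Y at 45.2 CPM, with NBL-S at 13.8, GI-ME-N at 8.43, Lan-6 at 4.34, CLB-GA at 1.33, SK-N-SH at 0.961, SK-N-AS at 0.260 and SK-N-FI at 0.181. All 6 amplified lines lay below GI-ME-N, although LS, IMR32 and NGP passed 2-fold, at 5.18-fold, 5.09-fold and 4.96-fold.

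SMC6 was raised in none of the 14 lines. It lay between 58.5 CPM (SK-N-BE(2)C) and 104.5 CPM (NGP) in the 6 amplified lines, with a median of 77.0, and between 42.2 CPM (Lan-6) and 125 CPM (GI-ME-N) in the 8 other lines, with a median of 89.2. The ranges overlapped throughout. SMC6 shares 35084 bases of genome with GEN1 on the opposite strand, and whether reads were assigned by strand is not given in the sources used here.

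TRIB2 stood at 514 CPM in the SK-N-BE(2)C library, 162 in NGP, 101 in SK-N-DZ, 81.1 in IMR32, 73.2 in IMR5-75 and 71.7 in LS. The others had 64.4 CPM (SK-N-SH), 124 (SH-SY5Y), 130.3 (NBL-S), 148 (SK-N-AS), 201 (GI-ME-N), 323 (CLB-GA), 513 (Lan-6) and 552 (SK-N-FI). Of the 6 lines only SK-N-BE(2)C was raised, at 3.94-fold, next to 4.24-fold in SK-N-FI and 3.93-fold in Lan-6.

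LPIN1, the member farthest from MYCN, ran from 85.3 CPM (LS) to 229 CPM (SK-N-BE(2)C) in the 6 lines and from 57.6 CPM (SK-N-AS) to 211 CPM (Lan-6) in the 8 others. It was raised in no line in the main setting. In SK-N-BE(2)C it passed 2-fold with DESeq2's size factors (log2 1.01) and with the deposited log2 values (log2 1.31). In Lan-6 it did so with the trend on GC content and length removed (log2 1.21). Its main log2 fold in SK-N-BE(2)C, 0.998, was the nearest below the threshold, and that of FAM49A in LS, 1.057, the nearest above it.

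Counted by line, 4 of the 8 members were raised in IMR32 (FAM84A, NBAS, DDX1 and VSNL1), where 11.5% of all tested genes were raised. In IMR5-75 4 were raised (FAM84A, NBAS, DDX1 and FAM49A), against 15.2% of all genes, and in SK-N-DZ the same 4 as in IMR5-75, against 11.9%. NGP had 3 (FAM84A, FAM49A and VSNL1), against 15.1%. LS had 2 (FAM49A and VSNL1), against 13.1%, and SK-N-BE(2)C had 1 (TRIB2), against 14.2%. The levels that chose the members are those counted here, so nothing is read from these shares. The median log2 fold of the members was 0.98 in IMR32, 0.90 in IMR5-75, 0.75 in NGP, 0.78 in SK-N-DZ, -0.28 in SK-N-BE(2)C and -0.08 in LS, while that of all tested genes was between 0 and 0.03.

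In the 8 other lines 0 to 2 members were raised. NBL-S had 2 (FAM49A and VSNL1), against 11.8% of all genes, and CLB-GA had 2 (TRIB2 and FAM49A), against 12%. GI-ME-N had 2 (FAM84A and VSNL1), against 21.1%, and Lan-6 had 2 (TRIB2 and VSNL1), against 25%. With the trend on GC content and length removed, Lan-6 had 5. SK-N-FI had 1 (TRIB2), against 12.8%, and SH-SY5Y had 1 (VSNL1), against 9.81%. SK-N-AS had 0, against 11.9%, and SK-N-SH had 0, against 17.4%. DDX1 was raised in none of these 8 lines, and NBAS in none except Lan-6 with the trend removed (log2 1.06).

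**Figure D2:**
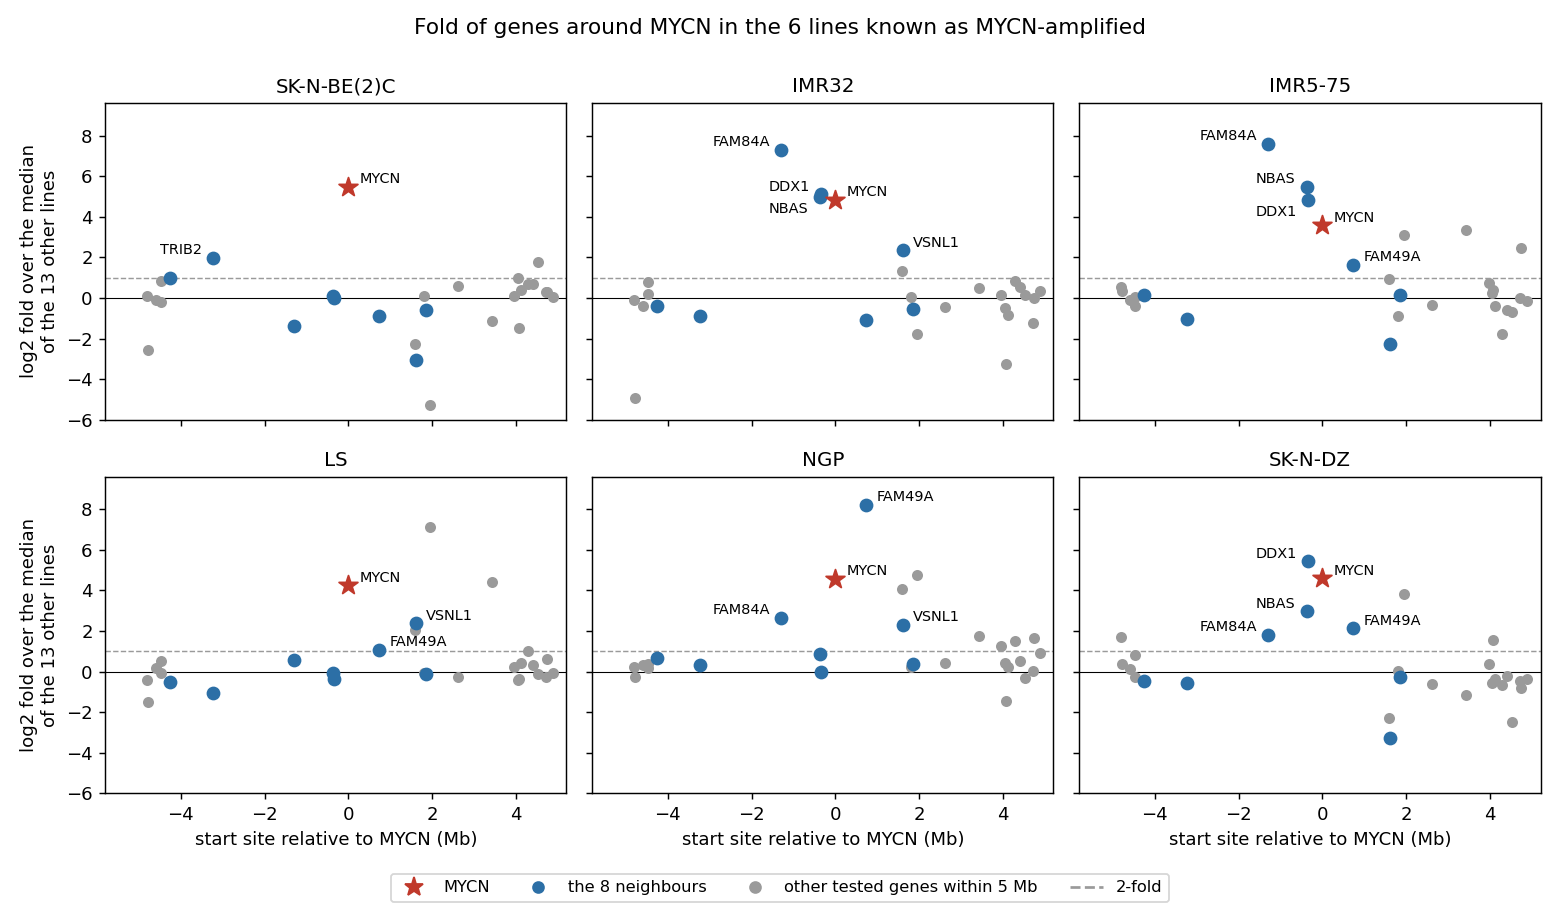
Fold of every tested gene within 5 Mb of MYCN in the 6 lines known as MYCN-amplified, 1 panel per line: the horizontal axis is the distance of the start site from that of MYCN in Mb, the vertical axis the log2 fold over the median of the 13 other lines, and the dashed line 2-fold. The highest members lie before MYCN in IMR32, IMR5-75 and SK-N-DZ, the highest in NGP lies after it (FAM49A, log2 8.23), and in SK-N-BE(2)C DDX1 and NBAS lie near 0.

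The 22 other genes within 5 Mb of MYCN are those left once the members, chosen partly on their levels, were set aside. They do not stand for the window as a whole, and 20 of them passed the filter. Of these 20, 6 were raised in NGP, 4 in LS, 3 in IMR5-75, 3 in SK-N-DZ, 1 in IMR32 and 1 in SK-N-BE(2)C, while 15.1%, 13.1%, 15.2%, 11.9%, 11.5% and 14.2% of all tested genes were raised there, in the same order. Their median log2 fold ran from -0.30 in SK-N-DZ to 0.40 in NGP. In the 6 amplified lines, 2 of these genes were raised at least 4-fold at 5 CPM or more, KCNS3 and GDF7. Others passed both limits in the 8 other lines, among them OSR1 (955-fold, 134 CPM in GI-ME-N) and SDC1 (8.37-fold, 283 CPM in SK-N-SH). KCNS3, a modulatory subunit of voltage-gated potassium channels 1.94 Mb after MYCN, was at 71.9 CPM in LS, 14.0 in NGP and 7.25 in SK-N-DZ, against a highest level of 14.8 CPM (CLB-GA) in the 8 other lines. Its fold of 138 in LS was the highest of these 20 genes within the 6 amplified lines. DDX1, NBAS and FAM84A were not raised in LS, although FAM84A passed 2-fold (log2 1.23) against the median of the 8 other lines alone. GDF7, a ligand of the BMP family 4.73 Mb after MYCN, was at 9.04 CPM in IMR5-75, against at most 4.29 CPM (SH-SY5Y) in the 8 other lines.

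Across 12 lines, without the derived lines IMR5-75 and SH-SY5Y, a slope on the log2 level of MYCN was fitted for each gene with edgeR's quasi-likelihood test. With Benjamini-Hochberg adjustment, 641 of 17781 genes (3.6%) had a slope past 0.05, 197 rising and 444 falling. Of the 20 other genes near MYCN 0 were called, and 6 had an unadjusted p under 0.05, against 25.1% of all genes. The smallest adjusted p from edgeR's quasi-likelihood test was 0.0734 (PQLC3, slope -1.23, SE 0.37 log2 per SD of MYCN), followed by 0.0745 for GREB1 (1.32, SE 0.39). DESeq2 in place of edgeR called 6 of the 20, and 3200 of all 17781 genes. With limma on the deposited log2 values, 1 of the 20 and 356 of all 17781 were called. The count over all genes fell to 0 without IMR32 or without NGP, to 8 without GI-ME-N, to 14 without SK-N-SH and to 25 without SK-N-DZ, and came to 1545 without SK-N-AS. It was 130 without NBL-S, 256 without SK-N-BE(2)C, 337 without LS and 366 without SK-N-FI.

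The members' slopes in the same fit are given with their SE and no p. They were 3.46 (SE 0.96) for FAM49A, 2.31 (SE 0.90) for FAM84A, 1.84 (SE 0.57) for DDX1 and 1.43 (SE 0.45) for NBAS, in log2 per SD of MYCN, an SD being 4.69 log2. They were 0.39 (SE 0.61) for VSNL1, 0.38 (SE 0.20) for LPIN1, 0 (SE 0.37) for TRIB2 and -0.17 (SE 0.13) for SMC6. The 4 members with the steepest slopes are those raised over 30-fold in at least 1 line of the fit. Without NGP the slope of FAM49A was 1.14, and without IMR32 that of FAM84A was 0.61 and that of NBAS 0.70. FAM84A came to 3.57 without GI-ME-N. With limma on the deposited log2 values the slopes were 1.11 for FAM49A, 0.99 for DDX1 and 0.49 for NBAS. The median slope was 0.91 for the members, 0.10 for the 20 other genes and -0.01 for all genes. The members were chosen partly on their levels in these libraries and the 20 are what remained, so nothing is read from this difference.

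**Figure D3:**
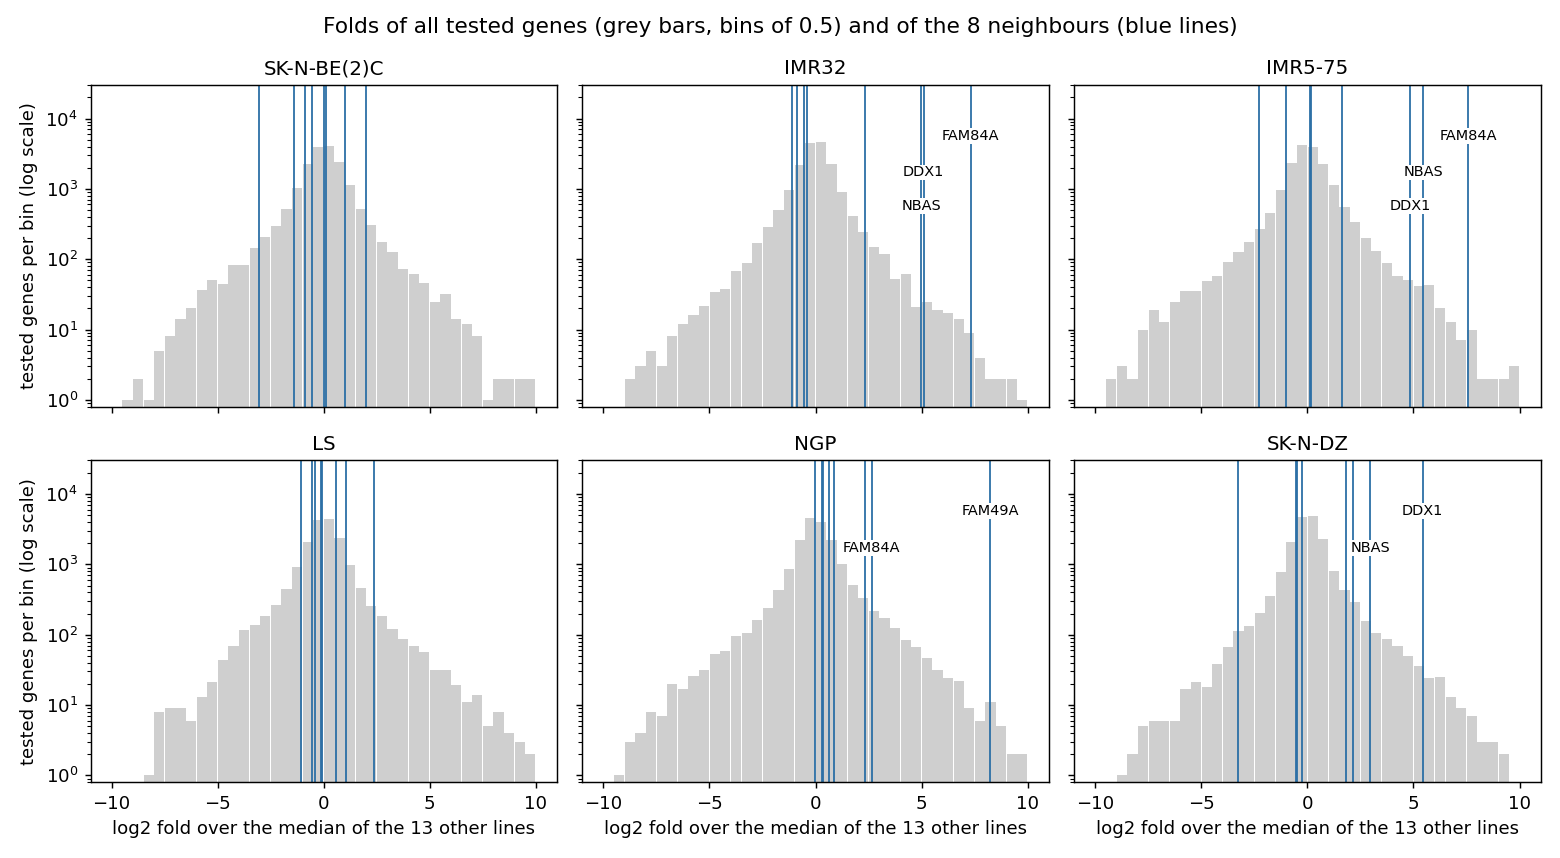
Folds of all 17781 tested genes in the 6 lines known as MYCN-amplified: grey bars count genes per bin of 0.5 log2, on a log scale, with folds beyond the axis counted in the outermost bins, and blue lines mark the 8 members. FAM84A in IMR32 and IMR5-75, FAM49A in NGP and DDX1 in SK-N-DZ lie in the upper tail, where 15, 15, 16 and 91 tested genes have higher folds, while the highest member is at log2 1.98 in SK-N-BE(2)C and 2.37 in LS.

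IMR5-75 and IMR32, the derived line and its parent, shared the raised levels of DDX1, NBAS and FAM84A. MYCN in IMR5-75 was 0.415 times its level in IMR32, while DDX1 was 0.841 times, FAM84A 1.22 times and NBAS 1.41 times. FAM49A was 3.87 times as high, at 5.98 CPM in IMR5-75 against 1.55 CPM in IMR32, and VSNL1 was 0.124 times, at 0.864 CPM in IMR5-75 against 6.96 CPM in IMR32. LPIN1 (1.34 times), TRIB2 (0.902 times) and SMC6 (1.5 times) differed by less than 2-fold. Of all tested genes 32.1% differed by at least 2-fold between these libraries, with a median absolute log2 difference of 0.62. Past 2-fold were MYCN, FAM49A and VSNL1, while DDX1, NBAS, FAM84A, LPIN1, TRIB2 and SMC6 all differed by less than that median.

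The protein partners of DDX1 and NBAS, coded outside this region, were looked at beside them. In the 6 amplified lines 11.5% (IMR32) to 15.2% (IMR5-75) of all tested genes were raised. None of the 7 other members of the tRNA ligase complex, among them RTCB, its ligase, was raised in any of the 6 lines. Their median log2 fold was 0 in IMR32, 0.13 in IMR5-75 and -0.19 in SK-N-DZ, the lines in which DDX1 was raised. None of the 7 partners of NBAS (RINT1, ZW10, STX18, SEC22B, USE1, BNIP1 and UPF1) was raised in any of the 6 lines either, with medians of -0.15 in IMR32, -0.19 in IMR5-75 and -0.31 in SK-N-DZ. Of 8 partners of SMC6, SMC5 alone was raised, at 152 CPM in LS (log2 1.14) and in SK-N-DZ (log2 1.13), 2 lines in which SMC6 was not. Lowered 2-fold or more were ZBTB8OS in SK-N-BE(2)C (log2 -1.01), FAM98B (-1.39) and NSMCE3 (-1.27) in IMR5-75 and ZW10 in NGP (-1.18). In SK-N-DZ USE1 (-1.54) and EID3 (-1.47) were lowered. With sets of 7 or 8 genes, nothing is read from these counts.

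**Figure D4:**
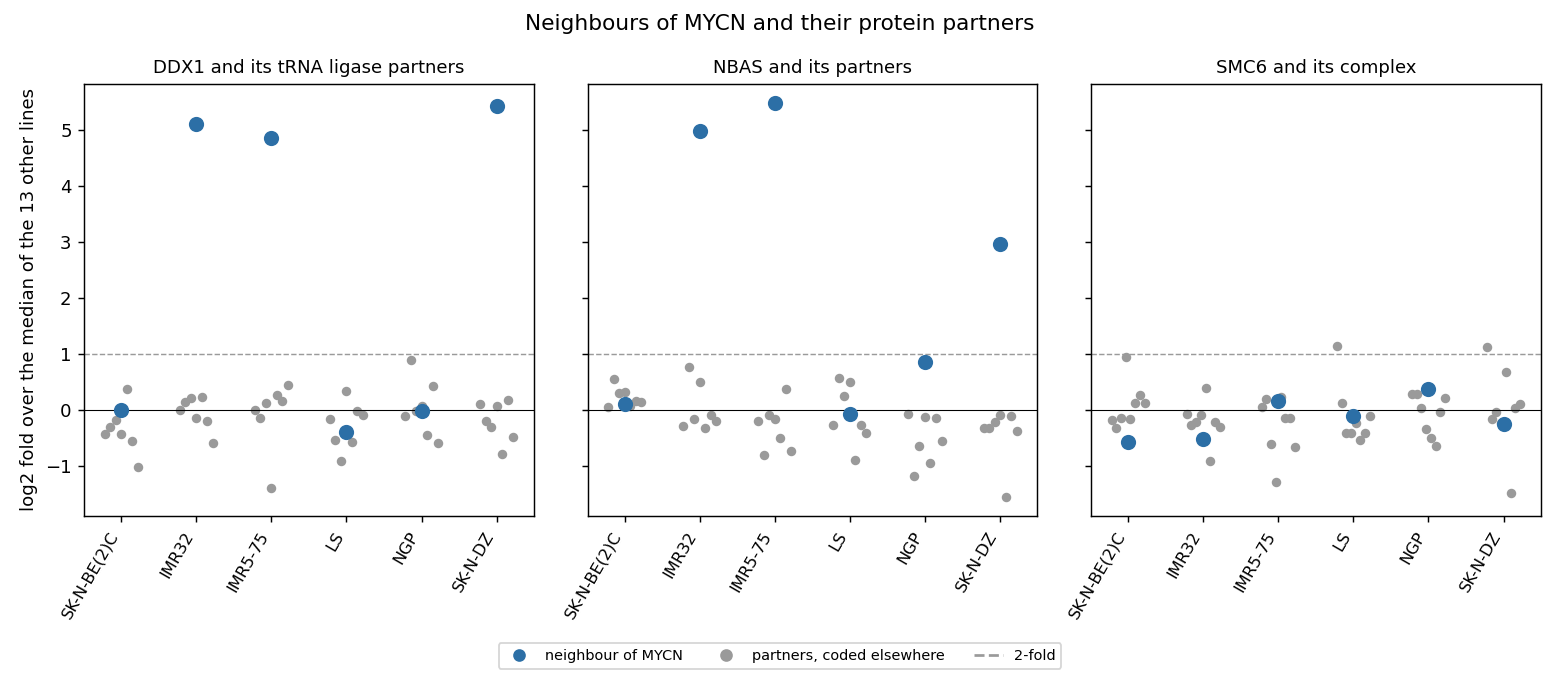
Log2 fold over the median of the 13 other lines of DDX1, NBAS and SMC6 (blue) and of their protein partners coded elsewhere (grey), in the 6 lines known as MYCN-amplified; the dashed line is 2-fold. DDX1 at 4.85 to 5.43 and NBAS at 2.97 to 5.47 in IMR32, IMR5-75 and SK-N-DZ stand above all their partners, whose points stay under 1.

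Of 10 paralogs of the members, 5 were raised in SK-N-BE(2)C, 4 in IMR5-75, 2 in NGP, 2 in SK-N-DZ, 1 in IMR32 and 1 in LS, lines in which 14.2%, 15.2%, 15.1%, 11.9%, 11.5% and 13.1% of all tested genes were raised. At the same time 3, 1, 3, 2, 4 and 3 of the 10 were lowered 2-fold or more, in the same order of lines. The share of all tested genes lowered is not given here, so nothing is read from these counts. HPCA, a neuronal calcium sensor like VSNL1, was at 59.8 CPM in IMR5-75 (log2 fold 6.35) and 67.5 CPM in NGP (log2 fold 6.53). LRATD2, the paralog of FAM84A, was at 23.0 CPM in IMR5-75 (log2 fold 3.24), where FAM84A was raised, and at 17.7 CPM in LS (log2 fold 2.86), where it was not. LPIN3 was at 23.9 CPM in SK-N-DZ (log2 fold 3.78). SK-N-BE(2)C, the line with TRIB2 raised, had 68.7 CPM of its paralog TRIB3 (log2 fold 1.47), with HPCAL4, NCALD and HPCAL1 raised by log2 3.35, 1.89 and 1.64.

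Over the 14 lines, Pearson's r of log2 CPM between each member and the 12510 genes averaging 5 CPM or more is given as a description, with no p. DDX1 and NBAS were each other's most alike gene, at r = 0.935. In the 11 lines in which DDX1 was not raised their r was 0.342. The next most like NBAS were SLC38A5 (0.901) and LRRC37A2 (0.865), and those most like DDX1 were ABCA5 (0.823) and SLC38A5 (0.822), none of which is coded near MYCN. DDX1 and MYCN had r = 0.50 over 14 lines and 0.200 over those 11. FAM84A was most like FASN (0.870), UBE2O (0.868) and COA7 (0.845), and FAM49A most like POU4F1 (0.832), COL9A2 (0.822) and SORD2P (0.799). FASN and the 3 genes like FAM49A were highest in the line in which that member was highest, FASN at 2030 CPM in IMR5-75 and POU4F1 at 87.4 CPM in NGP.

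Of the other members, VSNL1 had among its most alike genes RPS27 (0.831) and SRSF7 (0.773), of which RPS27 was highest in Lan-6 and SRSF7 in GI-ME-N, the libraries that stood apart. LPIN1 was most like MTSS1 (0.903), GADD45G (0.895) and CPNE4 (0.894). TRIB2 was most like SLC31A1 (0.874), EBAG9 (0.859) and NCKAP5L (0.843). SMC6 was most like RPGR (0.886), SNAPC1 (0.869) and PDK1 (0.857). Apart from DDX1 and NBAS, no member had a gene of the 5 Mb window among its 3 most alike.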

How the data were processed

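Per the labels' protocols, TRIzol was used to extract total RNA and a TruSeq protocol to build the libraries. Kallisto 0.44.0, DESeq2 1.48.2 and GRCh38 are named in the submitters' processing notes, with no role. For the annotation, strand setting and filters, nothing is given in the sources used here. The expected counts deposited by the authors are whole numbers per gene symbol with no scaling between libraries, and this unit, an estimated count, rests on the values. The log2 values deposited by the authors are called variance-stabilised, with settings not stated, and served only as an alternative scale.

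CPM used TMM factors, and log2 CPM a prior count of 2 (edgeR 4.0.16, R 4.3.3). Positions and lengths are from GENCODE 29 on GRCh38, where 19798 of 20049 symbols (98.7%) matched 1 gene, and promoters from RefSeq on GRCh38.p14. The members and gene lists were chosen with earlier results of these data known. With 1 library per line, p-values measure the spread between lines. The slope was fitted on 12 lines to genes kept by filterByExpr, without MYCN, and adjusted by Benjamini-Hochberg. In counts simulated for 17768 genes, 74% of slopes of 2 and 20% of slopes of 1 log2 per SD were called. Of slopes of -2 and -1, 78% and 24% were called, and of genes with none 0.0228%. Each gene was drawn on its own, without differences shared by many genes between lines, so these rates need not hold here. Named beside the members were window genes raised at least 4-fold at 5 CPM or more in 1 of the 6 amplified lines, raised partners and paralogs, and the 3 most alike genes per member, of which 1 is not reported here. As alternatives, DESeq2's size factors were used, then DESeq2 1.42.0, limma 3.58.1 on the deposited log2 values, other thresholds, prior counts, filters and medians, removal of the trend on GC content and length, and leaving out lines.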

Additional observations from a re-analysis of the deposited data

How the results depend on the processing

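The counts of raised members in IMR32, IMR5-75 and SK-N-DZ stayed within 1.5 times of 4 under every alternative run. In SK-N-BE(2)C the count of 1 became 2 with DESeq2's size factors, with derived lines left out of the median, with the trend on GC content and length removed, with the deposited log2 values and at 1.5-fold, and 0 at 4-fold. In LS the count of 2 became 1 with the trend removed, with the deposited log2 values and at 4-fold. It became 3 against the median of the 8 other lines only, with FAM84A at log2 1.23. In NGP the count of 3 became 5 at 1.5-fold. Against the median of the 8 other lines only it became 4, with NBAS at log2 1.06. Of 240 recomputed folds of members in the 6 lines, 7 changed sign, of which 1 was past 2-fold: FAM49A in IMR32, -1.09 in log2, was 0.13 against the median of the 8 other lines only. The log2 fold ranged over the alternatives from 7.32 to 8.65 for FAM49A in NGP, 6.86 to 7.96 for FAM84A in IMR32, 5.27 to 5.61 for DDX1 in SK-N-DZ and 2.68 to 3.17 for NBAS in SK-N-DZ.

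The 641 genes with a slope on MYCN became 1274 with all 14 lines, 0 with derived lines in place of their parents, 3200 with DESeq2, 356 with limma on the deposited log2 values, 1442 without SK-N-SH and SK-N-AS, whose MYCN lies farthest from its median (2 lines), and 0 (without IMR32 or NGP) to 1545 (without SK-N-AS) with 1 line left out. Among the 22 other genes near MYCN the 0 calls became 1 with all 14 lines, 6 with DESeq2 and 1 with limma. The 1 with all 14 lines was NT5C1B, which had not passed the filter on 12 lines. With 1 line left out the calls came to 0 to 2 (NT5C1B and PQLC3 without SK-N-AS). The causes were not tested. No paired analysis was possible because the labels give 1 group and no replicate numbers. Depth limits FAM49A, VSNL1 and FAM84A in lines with few counts.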

Other observations

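IMR32 and IMR5-75 also shared high levels of MEIS1 and ANTXR1, which lie on the same chromosome arm far from MYCN and were picked after their values were seen. MEIS1 (chr2:66433452-66573869), a homeobox transcription factor, was at 252 CPM in IMR32 and 476 CPM in IMR5-75, against 10.0 CPM (Lan-6) to 116 CPM (NGP) in the 12 other lines. ANTXR1 (chr2:69013178-69249327), a receptor for anthrax toxin, was at 1150 CPM in IMR32 and 1140 CPM in IMR5-75. The 12 other lines held 11.3 CPM (SK-N-BE(2)C) to 595 CPM (SK-N-SH). In IMR32 763 tested genes had a higher fold than MEIS1 and 317 a higher fold than ANTXR1, and in IMR5-75 510 and 443. KCNK12 (chr2:47516581-47570939) was also raised, 55.4-fold in IMR32 at 32.5 CPM and 8.97-fold in IMR5-75 at 5.23 CPM. Of the 11 tested genes between MEIS1 and ANTXR1, 0 were raised 2-fold in IMR32, against 11.5% of all tested genes. In IMR5-75 2 were raised, against 15.2%. Copy number along this stretch was not tested.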
